A study of Arabidopsis lyrata with 12 samples.

Results

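Runs of neighbouring H3K27me3 genes are places in the Arabidopsis lyrata genome where 5 or more listed genes in a row carried histone H3 trimethylated at lysine 27 in young leaves. A gene counted as marked with 200 bp or more of H3K27me3 domains between its start and end, or when a shorter gene lay in them entirely. Genes were ordered by their start on scaffolds 1 to 8, and listed genes are those in the deposited mRNA table, which may lack genes without reads. There were 34 such runs, and they held 202 genes. These were 0.855% of the 23615 listed genes on the 8 scaffolds (24268 in the whole table) and 4.97% of the 4064 genes with H3K27me3. The members were chosen by their H3K27me3 cover, so the H3K27me3 values below are a description.

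All material came from young leaves of accession MN47, grown in soil with 16 h of light at 22.5 °C. The groups were H3K4me3, H3K27me3, H3K27me1 and immunoprecipitated methylated DNA (5-methylcytosine, 5mC), with 2 libraries each, besides 1 mRNA library, 1 input library for chromatin and 2 input libraries for methylated DNA. Each mark came as 1 list of enriched domains and the mRNA as 1 mean exon coverage per gene. No value here therefore has a replicate error, no difference was tested, and the depth of every library is unknown. In whole leaves, fewer cells with a transcript and less of it per cell cannot be told apart, and neither can 2 marks on the same chromatin and 2 marks in different cells. Gene names are not paired with the identifiers in the files, so the leaf label was not checked against markers.

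H3K27me3 is laid down by Polycomb repressive complexes, which keep developmental and tissue-specific genes silent where they are not needed. In the related Arabidopsis thaliana the mark is known to lie mostly over single transcription units, whereas in animals it can spread over whole gene clusters. Transcribed genes typically carry H3K4me3 near their start, while H3K27me1 and 5mC are typical of transposons and heterochromatin. A row of marked genes can thus be covered by 1 domain that joins them or by separate domains, and it may or may not hold the other marks.

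Most H3K27me3 genes stood alone, and long runs were few. Runs of any length numbered 2875, of which 2094 held 1 gene, 519 held 2, 182 held 3 and 46 held 4. Of the runs of 5 or more, 19 held 5 genes, 9 held 6, 3 held 7, and 1 each held 8, 10 and 14 genes. Among all listed genes 17.2% carried H3K27me3. The gene after one with H3K27me3 also carried it in 29.3% of cases, and the gene after one without it in 14.7% of cases. Of runs that had reached 1 gene, 27.2% went on to a further gene, and of those that had reached 5 genes, 44.1% did so (15 of 34 runs). The longest runs therefore rest on few cases.

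The runs were spread over 7 of the 8 scaffolds. Scaffold 1 held 8 runs, scaffold 5 held 6, scaffolds 2 and 7 held 5 each, scaffolds 3 and 4 held 4 each and scaffold 6 held 2. Scaffold 8 held 0 runs, although 406 of its 2513 listed genes (16.2%) carried H3K27me3. On scaffold 5, by contrast, 8.84% of the H3K27me3 genes lay in runs. Every scaffold has 1 long stretch without any domain or listed gene. The runs lay between 0.507 and 17.5 Mb from it (median 5.46 Mb), and 1 run was within 1 Mb of it. From the nearest scaffold end they lay between 0.585 and 14.02 Mb away, with 2 runs within 1 Mb.

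**Figure D1:**
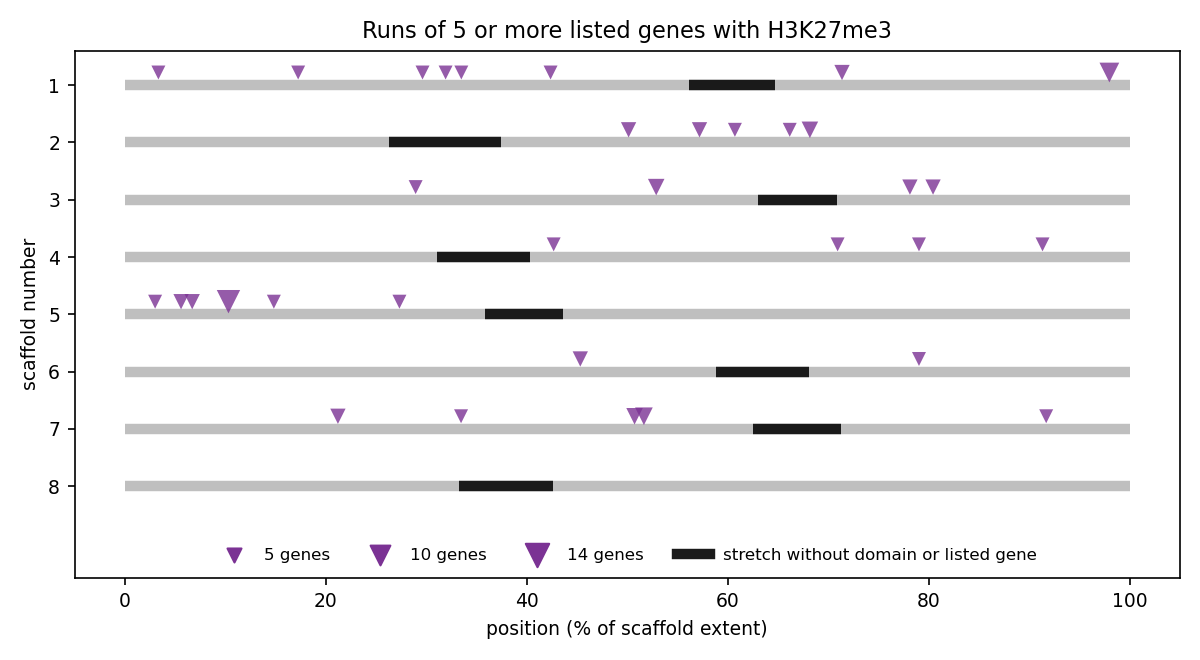
Place of the 34 runs on the 8 main scaffolds, as a percentage of each scaffold's extent (horizontal axis), with 1 line per scaffold. Triangles mark runs, their area grows with the number of genes, and black bars mark the stretch without any domain or listed gene; all 6 runs of scaffold 5 lie on the left of that stretch and all 5 of scaffold 2 on the right.

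Some runs stood close together. Of the 27 spaces between runs of the same scaffold, 10 were under 1 Mb. The closest pair lay on scaffold 5, where 166 kb with 4 listed genes, 0 of them with H3K27me3, separated the run at 1158424 to 1213741 from the run at 1379392 to 1463678. On scaffold 7, 193 kb with 29 listed genes, 3 of them with H3K27me3, separated the runs at 12490628 to 12519090 and 12712337 to 12756787.

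The runs measured from 12.3 to 159 kb (median 44.1 kb) and 1805 kb in all. Listed genes made up 26.1% of this length, against 32.6% of the 8 scaffolds with their empty stretches. The number of listed genes was 11.2 per 100 kb in runs and 13.4 per 100 kb on the scaffolds outside the empty stretches. The members were somewhat shorter than other genes with H3K27me3, with a median span of 1778 bp against 2182 bp. The shortest run, on scaffold 1 (9808961 to 9821294), packed 5 genes into 12.3 kb, of which 91.3% was gene. The longest span, on scaffold 1 (32387750 to 32546372), held 10 genes over 159 kb, of which 19.7% was gene.

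Consecutive listed genes did not always have consecutive gene numbers. Identifiers step by 10 along a scaffold, and larger steps leave gene numbers that the mRNA table does not list. Skipped numbers stood between 45 of the 168 neighbouring pairs in runs (26.8%), 83 numbers in all and at most 5 in 1 place. Such steps stood between 20.6% of all neighbouring listed genes and 30.0% of the pairs in runs of 2 to 4 genes. The share in long runs was thus near that of other neighbouring H3K27me3 genes. There were 11 runs with 57 genes without any skipped number, and the other 23 runs skipped up to 8.

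Runs without skipped numbers were shorter and held H3K4me3 more often. Their median span was 27.04 kb, against 52.8 kb for runs with skipped numbers. H3K4me3 was found in 25 of their 57 genes (43.9%), against 42 of 145 (29.0%). Nearly all runs without skipped numbers held 5 genes, while many of the others held more. H3K4me3 was found in 37.9% of genes in runs of 5 and 29.0% in runs of 6 or more. Span and H3K4me3 were not compared at an equal number of genes. Where a skipped number ended a run, 16 runs with 89 genes were left. What the skipped numbers hold was not analysed here.

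H3K27me3 in the runs was broken into many domains, which covered between 19.6 and 78.8% of a run (median 43.8%). On the 8 scaffolds, empty stretches included, H3K27me3 covered 13.2%. Of the H3K27me3 base pairs in runs, 64.8% lay outside listed genes. A run held between 5 and 48 domains (median 13). The run at 12776687 to 12793701 on scaffold 2 had the highest cover, and the run at 9913485 to 9998964 on scaffold 4 the lowest. The scaffold 4 run was also the one nearest to an empty stretch. These values follow in part from the rule, which asks for H3K27me3 on each gene.

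Seldom did 1 domain join neighbouring genes. A domain that touched both genes of a pair, and so also covered the whole gap between them, was found for 23 of the 168 pairs in runs (13.7%). The same held for 9.89% of the 1021 pairs in runs of 2 to 4 genes and for 0.568% of all neighbouring listed genes. In 19 runs 0 pairs were joined, and in 0 of the 34 runs were all pairs joined. With domains 300 bp apart merged, a choice made after the values were seen, 41 pairs (24.4%) were joined and 14 runs still had 0 joined pairs. That distance is the smallest between any 2 domains of the list.

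Of the 220 domains on members, 198 touched 1 member, 20 touched 2 and 2 touched 3. The median width of the 220 domains was 1500 bp, against 1200 bp for the 4737 domains on other H3K27me3 genes (quartiles 900 and 2700 bp, against 600 and 1800 bp). Widths over 5 kb made up 9.09% of the domains on members and 2.72% of the others. The deposited score per base pair, whose meaning is not stated, had a median of 0.901 and 0.855 in these groups. The widest domain, 12.9 kb on scaffold 7 (12486901 to 12499800) began before the first gene of its run and touched 2 members. Next came a domain of 12.6 kb on scaffold 6 (19853701 to 19866300), which touched 3 of the 5 genes of its run. The other domain on 3 genes measured 8.7 kb, on scaffold 7 (12736801 to 12745500). Even the widest domains thus ended within a few genes.

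Joined genes were close neighbours. Of gaps up to 1 kb, 43.9% were joined in runs (18 of 41) and 37.1% in runs of 2 to 4 genes (86 of 232). Of gaps over 1 and up to 5 kb, 9.09% were joined in runs (5 of 55) and 3.67% in the shorter runs (14 of 381). Beyond 5 kb, 0 of 72 pairs in runs and 1 of 408 in the shorter runs were joined. The longest joined gap in runs measured 3858 bp. Only 4 pairs of members overlapped (2.38%, against 1.18% of all neighbouring genes), and 3 of these were joined.

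**Figure D2:**
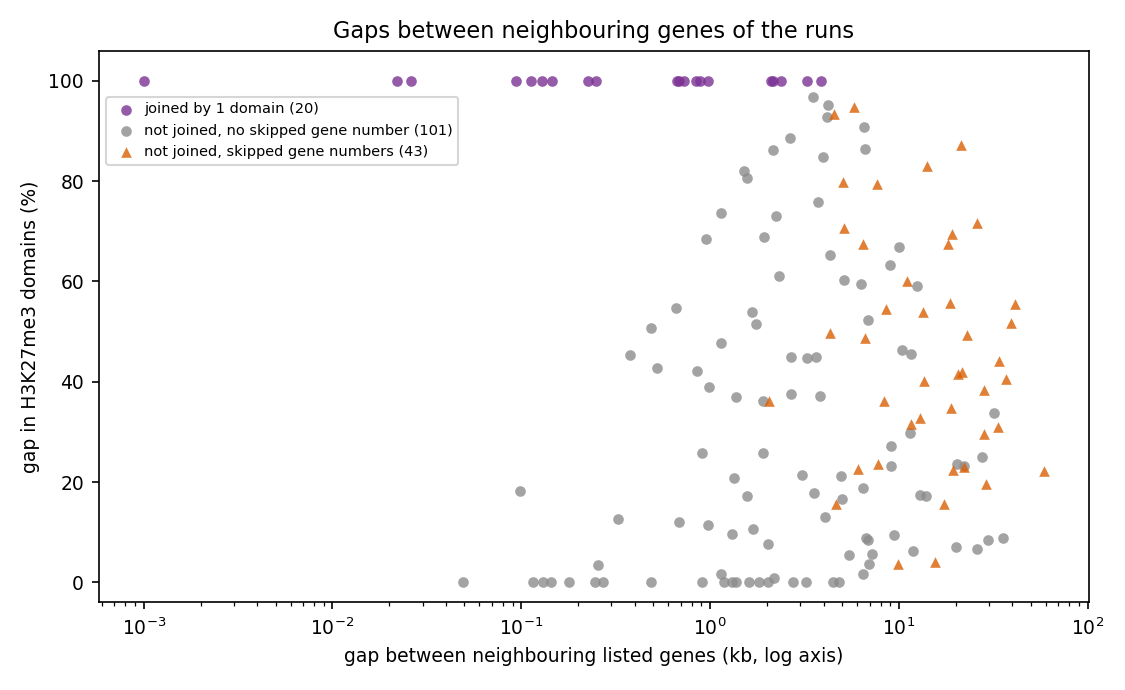
The 164 gaps between neighbouring genes of the runs that do not overlap, by width (horizontal, kb, log axis) and by the share of the gap in H3K27me3 domains (vertical, %). Purple points are the 20 gaps inside 1 domain, grey points the 101 other gaps without skipped gene numbers and orange triangles the 43 other gaps with them; the gaps inside 1 domain all lie under 4 kb.

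Gaps that were not joined still held H3K27me3 in most cases. Among the 101 without skipped numbers, the median share of the gap in domains was 21.4%, and 18 gaps held 0% (27 held at least 50%). Among the 43 with skipped numbers the median was 42.0%, 0 gaps held 0% and 17 held at least 50%. The gaps with skipped numbers were wider, with a median of 15.6 kb against 2.69 kb. By base pairs, 43.5% of the gaps with skipped numbers and 30.0% of those without lay in H3K27me3. Gaps in runs of 2 to 4 genes showed the same order, with 36.3% and 24.2%.

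The 6 runs with the most genes show how differently such stretches can be built. The longest by gene count, on scaffold 5 (2135234 to 2240248), held 14 genes in 105 kb with 8 skipped numbers and 38 domains. Its widest gap without a listed gene measured 41097 bp. Spans of 9 of the 14 genes lay wholly in H3K27me3, 3 pairs were joined, and 5 genes carried H3K4me3 and 6 carried 5mC. Coverage lay between 1 and 5.08 in 13 of its genes and reached 11.9 in the last one, which also carried H3K4me3. The run at 32387750 to 32546372 on scaffold 1 (10 genes, 7 skipped numbers) had 48 domains, yet 0 of its pairs were joined. Coverage there stayed between 1 and 2.59, and 5 genes each carried H3K27me1 and 5mC.

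On scaffold 7 a run of 8 genes (12712337 to 12756787) was 69.5% H3K27me3 and carried no H3K4me3 domain at all. Its second to seventh genes had nearly equal spans of 674, 688, 666, 666, 688 and 677 bp, with the third to seventh wholly inside H3K27me3. Their coverage was nevertheless uneven, at 1.68, 13.3, 38.0, 11.97, 3.62 and 33.5. Whether they share near-identical sequence, between which reads could be split, was not tested. The first and last genes of the run were longer, and their coverage was 1 and 1.33.

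The neighbouring run on scaffold 7 (12490628 to 12519090, 7 genes, 1 skipped number) was 73.3% H3K27me3, and at least 92.3% of every member's span lay in it. Its second gene reached a coverage of 32.4 and its sixth 8.07, neither with H3K4me3. The 2 genes with H3K4me3 had values of 1.13 and 2.66. Coverage in this run was thus higher in some genes without H3K4me3 than in those with it.

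Another pair of runs with 7 genes differed in density. On scaffold 3 (12912713 to 12964378, 4 skipped numbers) H3K27me3 covered 24.4% of the run, H3K27me1 25.9% and 5mC 32.5%. Coverage there was low throughout, between 1 and 5.88. On scaffold 2 (13155566 to 13190301) no number was skipped, the most genes for which this held. Its 7 values in order were 4.56, 1.22, 1, 1.48, 1.58, 199 and 118, and the last 2 genes both carried H3K4me3. In the sixth of these genes 29.1% of the span lay in H3K27me3, and in the seventh 89.7%.

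**Figure D3:**
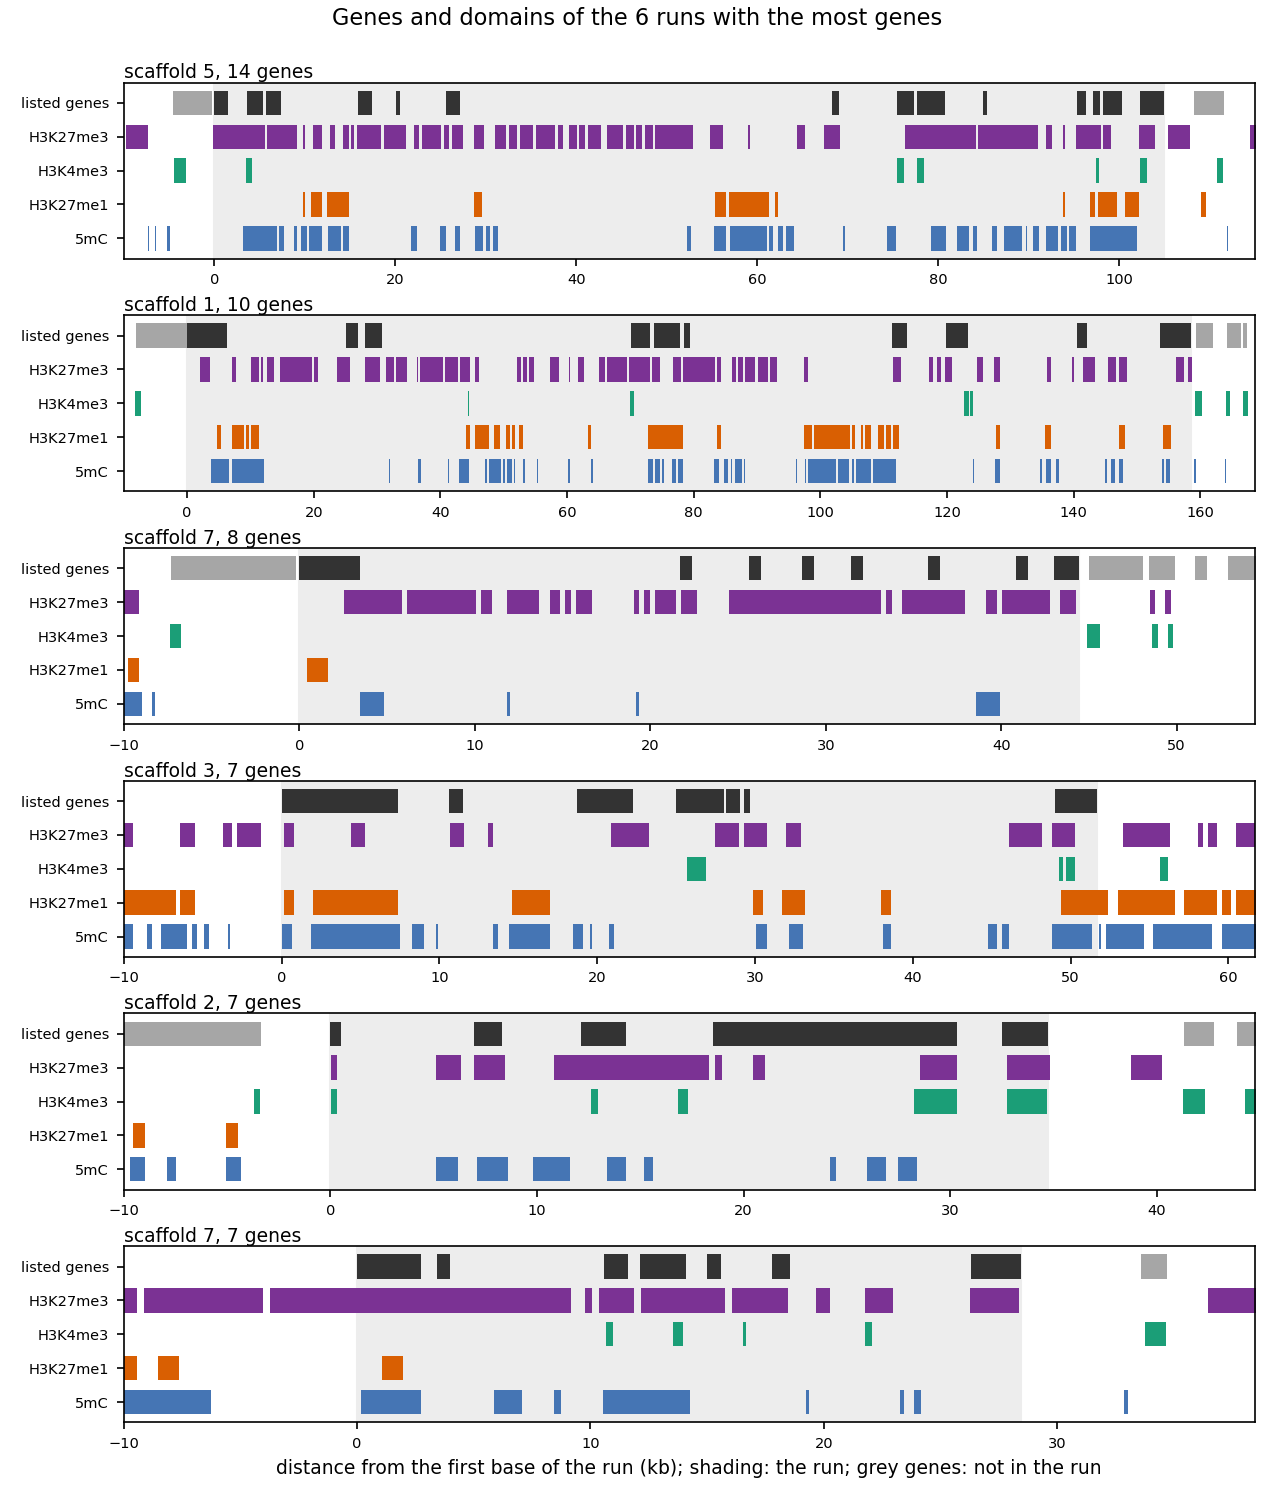
Listed genes and domains of the 4 marks in the 6 runs with the most genes, drawn to scale by distance from the first base of each run (kb), with 10 kb on both sides. Shading marks the run, dark boxes its genes and grey boxes genes outside it; each run holds 8 or more H3K27me3 domains, and H3K4me3 covers from 0% (scaffold 7 at 12712337) to 14.7% (scaffold 2 at 13155566) of a run.

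Of the 9 runs of 6 genes, 2 lay on scaffold 3 and 2 on scaffold 2. On scaffold 3 (19049585 to 19183944) 8 numbers were skipped in 134 kb, 0 pairs were joined, and coverage stayed between 1 and 1.65 with H3K4me3 in 1 gene. On scaffold 2 (10998228 to 11102306) the widest gap of any run, 58867 bp, lay inside a run of 104 kb, and 3 of 6 genes were at exactly 1. The run at 19648647 to 19711279 on scaffold 3 spanned 62.6 kb, with values of 16.8, 1, 4.69, 1, 33.1 and 2.25. Its 3 genes with H3K4me3 were the 3 with the highest values.

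The runs described next held 5 genes each. On scaffold 1, the run at 10562738 to 10589779 skipped no number, had 1 joined pair and 2 genes with H3K4me3, and reached 33.9. The scaffold 1 run at 11059031 to 11130971 skipped 3 numbers, was 61.1% H3K27me3, had 0 joined pairs and 0 genes with H3K4me3, and reached 14.4. At 14020312 to 14055685 on that scaffold 1 number was skipped, 0 pairs were joined, 74.1% of the run was gene, 3 genes carried H3K4me3 and the highest value was 5.36. On scaffold 2, the run at 11723744 to 11738089 had a median gap of 74 bp, 2 of 4 pairs joined and 2 genes above 20, at 46.7 and 72.4. The share of listed gene in these 4 runs ranged from 37.6 to 97.4%.

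On scaffold 4, the run at 9913485 to 9998964 skipped no number over 85.5 kb and had 0 joined pairs, 1 gene with H3K4me3 and a highest value of 35.8. At 16523628 to 16576384 the scaffold 4 run skipped 6 numbers and had 0 joined pairs, 3 genes with H3K4me3 and a highest value of 71.7. The scaffold 4 run at 21292131 to 21324076 skipped 2 numbers and had 0 joined pairs, 2 genes with H3K4me3 and a highest value of 13.6. In all 3 of them the second highest value was at most 5.45, so 1 gene stood above the rest. On scaffold 5, the runs at 620978 to 655615 and 3130574 to 3162474 had 0 genes with H3K4me3, and the run at 5760805 to 5837940 had 1. Of these, the run at 3130574 had 2 of 4 pairs joined and a median gene span of 300 bp. Their highest values were 5.22, 6.93 and 4.69, all below the median of all listed genes.

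On scaffold 6, the run at 19834430 to 19866175 was 77.3% H3K27me3, had 2 of 4 pairs joined and held 2 genes above 10, at 11.2 and 14.9. On scaffold 7, the run at 8235898 to 8259617 skipped no number, was 72.7% gene and had 0 joined pairs, 2 genes with H3K4me3 and a highest value of 2.81. The scaffold 7 run at 22574987 to 22633923 skipped 4 numbers and had 0 joined pairs, 3 genes with H3K4me3 and a highest value of 6.86. H3K27me3 covered 40.5 and 29.0% of these scaffold 7 runs, both below the median of the 34 runs.

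Members gave little mRNA, at a level close to that of other H3K27me3 genes. Their median coverage was 1.84 (quartiles 1.11 and 4.67), against 1.87 (quartiles 1.00 and 5.83) for the 3862 H3K27me3 genes outside these runs and 8.46 (quartiles 3.68 and 18.0) for the 19551 genes without the mark. By run length the medians were 1.84 in runs of 5 or more, 1.79 in runs of 3 or 4, 1.89 in runs of 2 and 1.90 in lone genes. These classes pool run lengths, and single lengths varied more, with medians of 1.65 in runs of 6 or more, 2.50 in runs of 5 and 1.54 in runs of 4. The table's lowest value, exactly 1, was given to 47 members (23.3%), against 25.6% of other H3K27me3 genes and 8.13% of all listed genes. Above this floor, 155 members had a median of 2.78 and 2872 other H3K27me3 genes a median of 3.05.

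Coverage was low in most runs but often uneven within them. The median of a run lay under 2 in 16 runs, between 2 and 5 in 14 and above 5 in 4. At least 1 gene at exactly 1 stood in 27 of the 34 runs, while 18 runs held at least 1 gene above 7.13, the median of all listed genes. Values of at least 20 were found in 17 members (8.42%) of 11 runs, against 8.26% of other H3K27me3 genes and 20.0% of all listed genes. Of these 17 genes, 10 carried H3K4me3 and 4 lay wholly in H3K27me3.

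**Figure D4:**
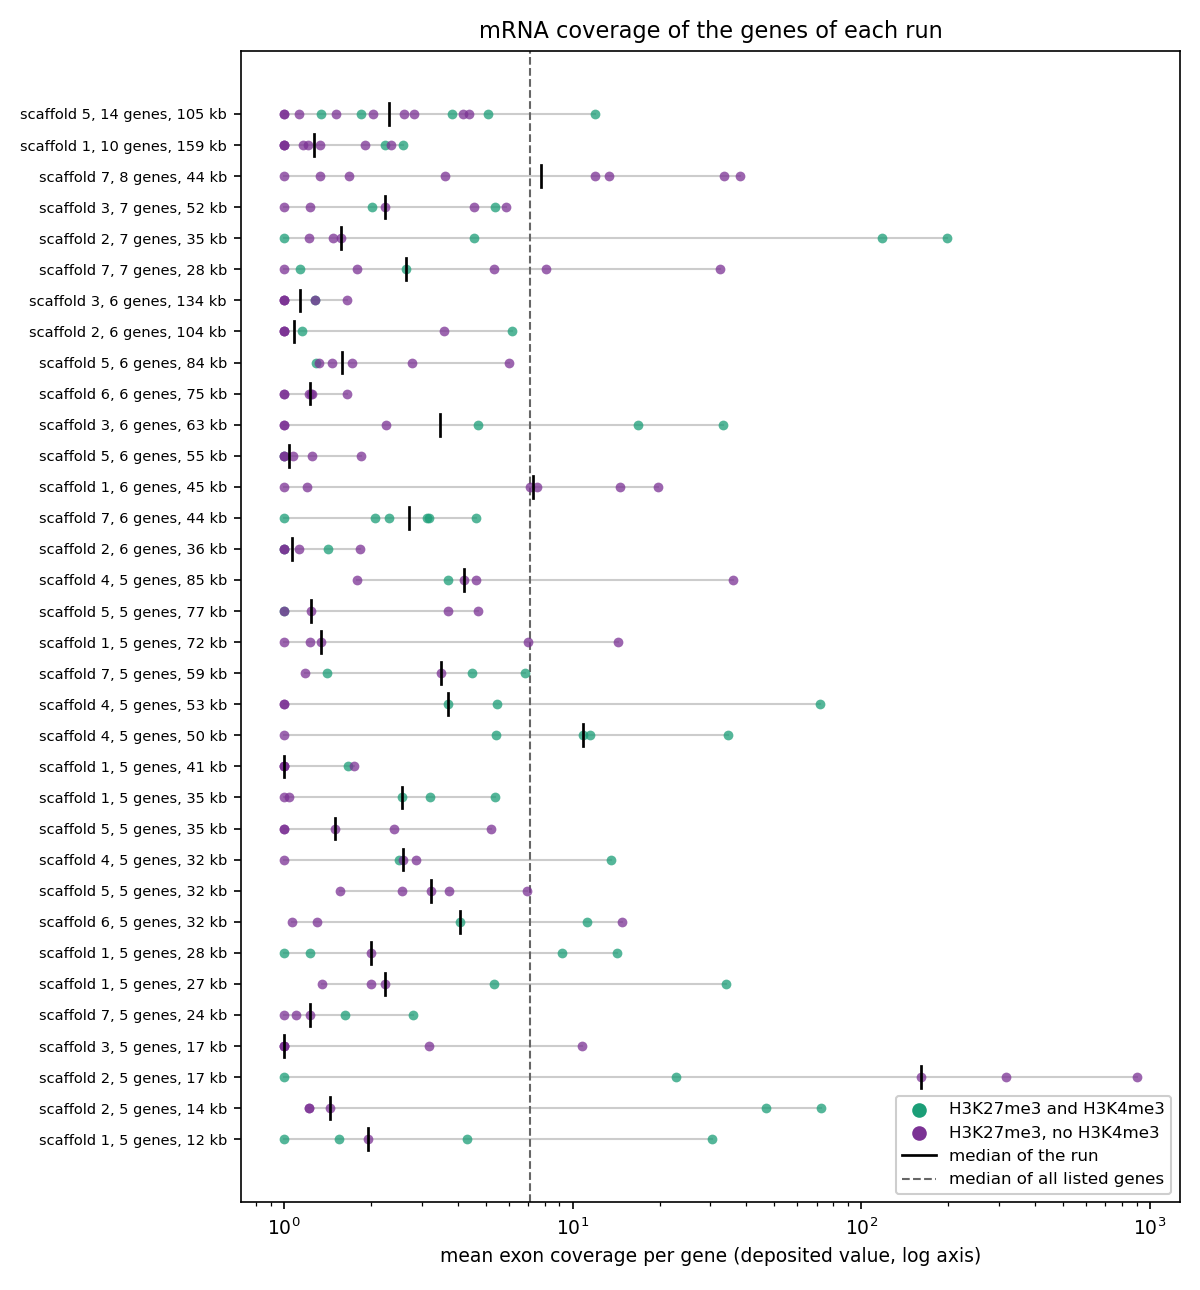
Mean exon coverage of each of the 202 genes (horizontal, log axis), with 1 row per run, ordered by number of genes and then by span. Green points carry H3K4me3, purple points do not, black ticks are run medians and the dashed line is the median of all listed genes, 7.13; only 4 run medians lie to its right, and within a run values can differ by more than 100-fold.

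The run with the highest median, 160, lay on scaffold 2 (12776687 to 12793701). Its 5 genes had values of 160, 318, 904, 1 and 22.9 in their order along the scaffold. The first 3 of them are short (435, 538 and 479 bp), and carried no H3K4me3, H3K27me1 or 5mC. AL2G25250 (scaffold 2, 12783113 to 12783591) was the member with the highest coverage, 904, and 60.8% of its span lay in H3K27me3. AL2G25240 (scaffold 2, 12779054 to 12779591), with 318, lay wholly inside an H3K27me3 domain. The 2 genes of this run with H3K4me3 were the 2 with the lowest values.

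The other 3 runs with a median above 5 lay on scaffolds 4, 1 and 7. On scaffold 4 (18414344 to 18464504) 4 of 5 genes carried H3K4me3, and the values were 11.4, 5.42, 1, 10.9 and 34.4, with the lowest in the only gene without H3K4me3. On scaffold 1 (23627725 to 23672436) 0 of 6 genes carried H3K4me3, and the values were 1.20, 7.53, 7.09, 19.7, 1 and 14.6. The last 5 genes there spanned 374 to 650 bp. The third was the run of 8 genes on scaffold 7 described above. High medians thus occurred both with and without H3K4me3.

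At the other end, medians of 1 were reached by the runs on scaffold 1 (5693449 to 5734859) and scaffold 3 (7071272 to 7088517). Both had 3 of 5 genes at exactly 1. In the second of them the other values were 10.8 and 3.18, in the first 2 genes of the run. Medians of 1.04 and 1.06 were found on scaffold 5 (1158424 to 1213741) and scaffold 2 (9668637 to 9704587), where the highest values were 1.84 and 1.83. The most even run, on scaffold 6 (11346462 to 11421103, 7 skipped numbers), ranged from 1 to 1.66 over 6 genes, all with H3K27me3 as their only mark. The longest members at exactly 1 were AL3G40470 (scaffold 3, 12912713 to 12920092) and AL1G64330 (scaffold 1, 32387750 to 32394070). Both carried H3K27me1 and 5mC besides H3K27me3.

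H3K4me3 was found less often in members than in other genes with H3K27me3. It covered at least 200 bp of 67 of the 202 members (33.2%), against 48.4% of the 3862 other H3K27me3 genes, 85.8% of genes without H3K27me3 and 79.2% of all listed genes. By run length the share was 33.2% in runs of 5 or more, 43.0% in runs of 3 or 4, 49.5% in runs of 2 and 49.8% in lone genes. The lower share of members held in each class of gene length, and most of all under 1 kb. It was 11.5% against 41.8% under 1 kb (52 members and 565 others), 41.4% against 50.2% from 1 to 2 kb and 40.2% against 49.2% from 2 kb. A stricter rule gave lower shares in both groups. With H3K4me3 over at least 50% of the span 14 members (6.93%) had it, against 14.8% of other H3K27me3 genes and 23.7% of all listed genes. With the top 50% of H3K4me3 domains by score 17 members (8.42%) had it, against 13.4% and 46.7%.

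In most members with both marks the domains shared base pairs. They shared at least 150 bp inside 54 of the 67 genes (80.6%) and 0 bp inside 13. This overlap was not counted in other genes with both marks, so it cannot be called particular to members. The median share of the span in H3K27me3 was 87.5% over all members, against 65.5% in other H3K27me3 genes. H3K4me3 covered a median of 723 bp of these members, against 600 bp in other genes with both marks and 789 bp in genes with H3K4me3 but no H3K27me3. Median coverage was 3.70 in the 67 members with H3K4me3, with quartiles of 1.59 and 10.02, and 1.44 in the 135 without it, with quartiles of 1.00 and 3.36. In other H3K27me3 genes these medians were 3.84 and 1.28. In both groups coverage was thus higher where H3K4me3 was present.

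Runs ranged from none to all of their genes with H3K4me3. There were 7 runs with 0 such genes, 6 with 1, 11 with 2 and 9 in which at least 50% of genes carried it. In the run on scaffold 7 at 5204992 to 5248667 all 6 genes carried both marks, with coverages of 4.63, 3.19, 2.30, 3.13, 2.07 and 1. Between 14.2 and 80.3% of each of these spans lay in H3K27me3. The runs on scaffold 1 at 1090678 to 1118413 and at 9808961 to 9821294 had H3K4me3 in 4 of 5 genes. Their values were 14.2, 9.18, 2.00, 1 and 1.23 in the first, and 4.30, 1.55, 1.95, 1 and 30.4 in the second. Genes with both marks in these runs thus reached from the floor of the table to above the median of all genes.

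**Figure D5:**
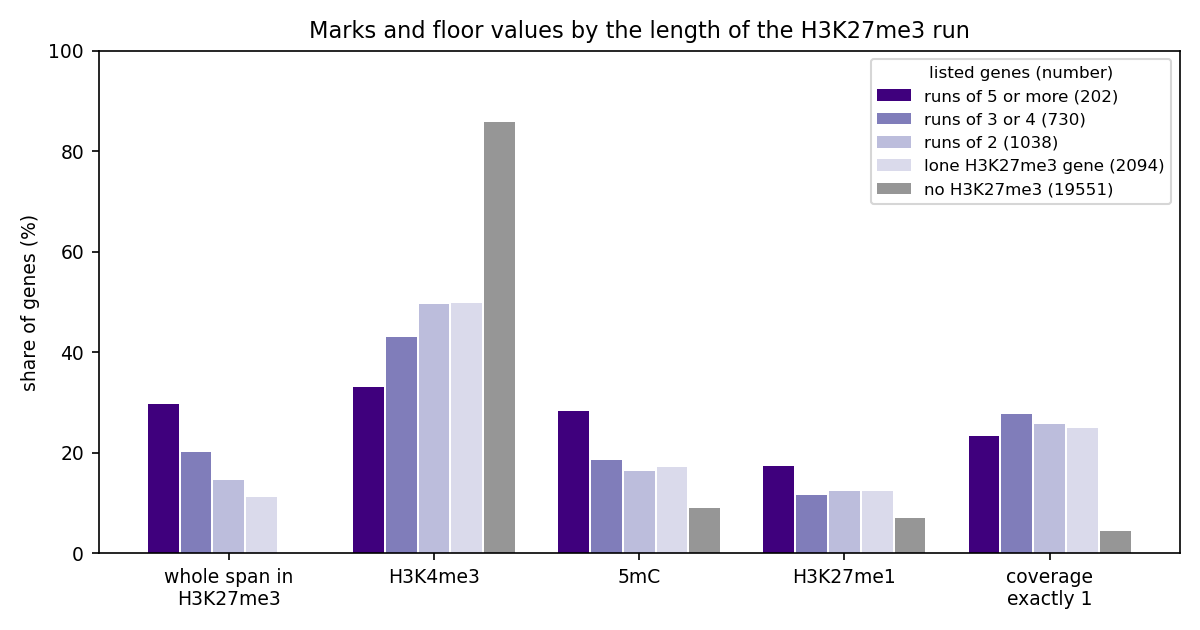
Share of genes (vertical, %) whose whole span lay in H3K27me3, that carried H3K4me3, 5mC or H3K27me1, or that were listed at exactly 1, by the length of the H3K27me3 run they stand in. Bars run from genes in runs of 5 or more (202 genes) to genes without H3K27me3 (19551). H3K4me3 was found in 33.2% of genes in runs of 5 or more and 49.8% of lone genes. 5mC was found in 28.2% of genes in runs of 5 or more, 18.5% in runs of 3 or 4, 16.4% in runs of 2 and 17.1% of lone genes. The share at exactly 1 did not rise or fall steadily with run length.

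5mC was found more often in members than in other H3K27me3 genes. H3K27me1 was also more frequent, but not under every choice of runs described below. 5mC covered at least 200 bp of 57 members (28.2%), against 17.2% of the others and 10.5% of all listed genes. H3K27me1 was found in 35 members (17.3%), against 12.2% and 7.98%, and 31 of these 35 also had 5mC. Both marks together were thus found in 15.3% of members, against 9.61% of other H3K27me3 genes and 4.35% of all listed genes. Among genes of at least 2 kb 5mC reached 46.7% of 92 members, against 26.5% of 2086 others, and H3K27me1 34.8%, against 20.1%. From 1 to 2 kb the shares were 17.2% against 6.28% for 5mC and 3.45% against 3.47% for H3K27me1. Under 1 kb they were 7.69% against 6.19% for 5mC and 1.92% against 1.77% for H3K27me1. The higher share of H3K27me1 was thus found in genes of at least 2 kb and not in the shorter classes. H3K27me3 was the only mark of 97 members (48.0%), against 40.7% of the others (45.2% in runs of 3 or 4) and 7.07% of all listed genes.

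These marks were concentrated in some runs. At least 50% of genes carried 5mC in 5 runs, while 8 runs held 0 genes with 5mC and 15 held 0 with H3K27me1. The neighbouring runs of scaffold 5 named above had 5mC and H3K27me1 in 5 of 6 genes in the first and in 4 of 6 in the second. 5mC domains covered 68.0 and 60.0% of these runs. Without the pair, a choice made after the values were seen, 5mC was found in 25.3% of the other 190 members and H3K27me1 in 13.7%. With H3K27me3 required over at least 50% of the span, the runs left had 5mC in 20.6% of 68 genes and H3K27me1 in 7.35%. Where a skipped number ended a run, H3K27me1 was found in 12.4% of 89 genes and 5mC in 26.97%. Of H3K27me3 genes outside the 34 runs, 12.2% carried H3K27me1 and 17.2% carried 5mC. The H3K27me1 shares of 13.7 and 12.4% were near that value and 7.35% was below it, while the 5mC shares stayed above 17.2%. The shares of the other genes were not recomputed for each choice.

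Over the whole length of the runs, 5mC covered 30.9% and H3K27me1 21.6%, against 20.9 and 15.7% of the 8 scaffolds. H3K4me3 covered 3.85%, against 9.02%. These scaffold shares include the empty stretches, which hold no domain, and so lie below the shares outside those stretches. The share of a run under 5mC lay above that of the scaffolds in 22 of 34 runs, and under H3K27me1 in 20. Of the H3K27me3 base pairs in runs, 26.2% lay also in 5mC and 16.3% also in H3K27me1, against 22.7 and 16.3% of all H3K27me3 base pairs on the scaffolds. The gaps between members were 33.2% 5mC and 22.8% H3K27me1, against 30.0 and 19.7% in runs of 2 to 4 genes. Between all neighbouring listed genes, empty stretches included, the gaps were 28.3% 5mC and 20.8% H3K27me1. Gap shares without the empty stretches were not computed.

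Inner genes of the runs were more often wholly covered and more often carried 5mC than the genes at the edges. The 68 first and last genes had a median coverage of 2.33 and the 134 inner genes of 1.65, with H3K4me3 in 36.8 and 31.3%. For H3K27me3, a span wholly in H3K27me3 was found in 20.6% of edge genes and 34.3% of inner genes, and 5mC in 22.1 and 31.3%. Edge genes were also longer, with a median span of 2115.5 bp against 1717.5 bp. Whole cover was not compared at equal length. The 43 members joined to a neighbour had a median coverage of 2.00 and the 159 others 1.79, with H3K4me3 in 25.6 and 35.2%. Genes listed at exactly 1 made up 13.95% of the joined and 25.8% of the other members. Being joined thus did not go with lower coverage.

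Genes beside the runs differed from the members in H3K4me3 and coverage. The 68 listed genes beside the runs, which the rule requires to fall short of the mark, had 0 bp of H3K27me3 in every case. A cover near 0 was general in unmarked genes. Over all 19551 of them the mean share of the span in H3K27me3 was 0.016%. H3K4me3 was found in 61 of them (89.7%), and their median coverage was 7.99 (quartiles 4.74 and 19.0), against 33.2% and 1.84 in members. Genes beside lone H3K27me3 genes had similar values, with H3K4me3 in 86.7% and a median of 8.54. Skipped numbers stood between a run and the gene beside it in 25 of 68 cases (36.8%). The share was 28.0% of all 5748 neighbouring pairs in which 1 of the 2 genes carried H3K27me3. In 17 of the 68 cases the gene beyond carried H3K27me3 again. Thus 13 of the runs had a further H3K27me3 gene after 1 unmarked gene at 1 or both ends. Over all listed genes, the gene after one without H3K27me3 carried the mark in 14.7% of cases. That share is lower than beside the runs, but part of the 17 cases would be met beside any unmarked gene. The difference was not tested.

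The choice of members rests on 2 limits. The smallest H3K27me3 cover of a member was 210 bp, and 5 members had under 300 bp. The 46 runs of 4 genes, just outside the rule, had a median coverage of 1.54 in 184 genes, H3K4me3 in 45.1% and 5mC in 18.5%. The 19 runs of 5 genes, just inside, had 2.50 in 95 genes, 37.9% and 22.1%. In the 107 genes of runs of 6 or more these values were 1.65, 29.0% and 33.6%.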

How the data were processed

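The authors deposited 1 list of domains per mark, each domain with a scaffold, start, end and whole-number score, and 1 table of mean exon coverage per gene (a signal of unstated normalization) for the mRNA library. Per the submitters' processing notes, Bowtie and SICER were used; settings, genome build, score meaning and any pooling of replicates were not given in the sources used here. Domain edges fall on a grid (300 bp for H3K27me3), which limits how exactly gaps can be placed, and depth is unknown. Coordinates are 1-based. None of the identifiers (0 of 24268) matched RefSeq's 34365 genes (assembly v.1.0), so no gene names, families or sequences are given.

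Overlaps, runs, pairs and medians were computed in Python 3.11.15 with numpy 2.4.6 and pandas 2.3.3, and the functions were tested on simulated data. Runs were named by number of genes, median coverage, H3K4me3, span, domain width and skipped numbers, and 4 genes by highest coverage and by length at the floor. Members and lists were chosen with earlier results of these data known. Alternatives changed the H3K27me3 and H3K4me3 rules, the shortest run, skipped numbers, overlapping genes, gaps of 1 gene and genes at exactly 1. Small scaffolds and input libraries were not used here.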

Additional observations from a re-analysis of the deposited data

How the results depend on the processing

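Recomputed under the alternatives were the number of runs (34), their genes (202), their share of H3K27me3 genes (4.97%), median coverage (1.84), genes at exactly 1 (23.3%), H3K4me3 (33.2%), joined pairs (13.7%) and pairs with skipped numbers (26.8%). Of 68 recomputed values, 35 stayed within 1.5 times a count or within the exact 95% binomial interval of a share or median, which covers counting error only. How many runs exist depended on the rule. There were 11 runs with 68 genes (2.65%) for H3K27me3 over 50% of the span, 22 with 133 (3.61%) for 500 bp, and 15 with 89 (3.20%) for the top 50% of domains by score. Runs of 4 or more numbered 80 with 386 genes (9.50%), runs of 7 or more 6 with 53 (1.304%), runs ended by a skipped number 16 with 89 (2.19%), and runs with 1 unmarked gene allowed 75 with 451 (11.1%). The counts move by construction, since each rule admits fewer or more genes; for the other values the cause was not tested. Median coverage was 2.63 at 50% of the span, 2.60 where a skipped number ended a run and 2.78 without genes at exactly 1. The share at exactly 1 was 17.0% in runs of 7 or more. H3K4me3 was found in 40.1% with 1 unmarked gene allowed, in 6.93% over 50% of the span and in 8.42% with the top 50% of its domains. Joined pairs made up 22.8% at 50% of the span, 21.6% with the top 50% of domains, 20.5% where a skipped number ended a run and 24.4% with domains 300 bp apart merged, an alternative chosen after seeing the data. Pairs with skipped numbers were 0% where these ended a run. No paired analysis was possible because each mark has 1 domain list for both libraries and no result comes from a test. Unknown depth limits every count of domains and marked genes.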
